A study of Mus musculus with 14 samples.

Results

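The liver stores most of the body's vitamin A, and 9 genes that handle it were followed here across 14 bulk RNA-seq libraries of mouse liver. The genes were chosen by name for their roles: Lrat and Rbp4 (storage and export of retinol), Rdh10, Rdh11 and Rdh16 (retinol dehydrogenases), Aldh1a1 (retinoic acid synthesis), Cyp26a1 and Cyp26b1 (retinoic acid removal) and Rarb (a retinoic acid receptor). They are 9 of 55427 genes in the table. The largest log2 difference that passed a test was in Rdh16, which was 3.90 times as high in HiAD as in chow livers by the ratio of group means, and was lower in HiAD livers of mice given PM and in HiAD livers labelled RageHepKO. Lrat, Rbp4 and Aldh1a1 passed the test in none of 6 comparisons.

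In all groups the mice were male, carried the Rage fl/fl allele on a C57B6 background (RAGE flox in the labels; Rage is Ager, the receptor for advanced glycation end-products or AGEs) and were 8 to 10 weeks old at the start. They were fed for 14 weeks. The groups were chow (n = 3), FFD (n = 3; a fast-food diet with high-fructose drinking water), HiAD (n = 3; the same diet cooked to raise its AGE content), HiAD + PM (n = 2; HiAD with daily intraperitoneal pyridoxamine, an inhibitor of AGE formation, at 60 mg per kg from week 5 of feeding) and HiAD RageHepKO (n = 3; RAGE flox/Alb cre mice on HiAD, in which the albumin promoter drives Cre in hepatocytes, so that other liver cells keep Ager). The authors describe the HiAD mice of the RNA-seq as treated with vehicle. Each library is described as RNA of a separate mouse. Values are FPKM (fragments per kilobase of exon, per library total) scaled between libraries, called scaled FPKM below. A fold change is a difference of log2(scaled FPKM + 1) from limma, with its SE, and understates the change of genes near 1 FPKM. A gene passed where its adjusted p, by the Benjamini-Hochberg method over the 12110 genes tested, was below 0.05.

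The libraries differed in ways that the groups' names do not give. Ager was lowest in HiAD livers (0.0811 to 0.184 scaled FPKM) and was 0.198, 1.90 and 1.83 in the 3 livers labelled RageHepKO, against 0.801 to 2.78 in chow, FFD and HiAD + PM. The order goes against the labels, although FPKM over the whole gene does not single out the deleted part of Ager. Every direction below rests on the labels. Mitochondrially encoded genes made up 24.3 to 53.1% of all FPKM in the livers labelled RageHepKO and 6.06 to 24.1% in the others. A list of 10 male-biased liver genes summed to 69.5 to 178 scaled FPKM in HiAD and to 785 or more in every other library. A list of 10 female-biased genes summed to 53.2 to 108 in HiAD, to 41.2 to 193 in the livers labelled RageHepKO and to at most 21.6 in the rest. The RageHepKO sum came largely from Cyp2a4, at 37.5 to 190 against 11.3 to 18.7 scaled FPKM in HiAD. Of the 5 tested genes of that list, 4 were lower and 1 higher there than in HiAD (median log2 difference -2.31). Cholangiocyte markers summed to 92.0 to 147 in HiAD and to at most 36.9 elsewhere. These sums came largely from Spp1, at 84.3 to 137 scaled FPKM in HiAD and at most 34.8 elsewhere. The hepatocyte list summed to between 20834 and 47931 scaled FPKM in every library. By limma, 0 of its 10 genes passed in HiAD against FFD or chow. In the livers labelled RageHepKO, 6 were lower and 1 higher than in HiAD (median log2 difference -1.11), beside 33.4% of all genes passing in either direction.

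Retinol reaches the liver in lipoprotein remnants. Stellate cells esterify it with LRAT and keep the esters in lipid droplets. Hepatocytes release retinol into plasma on RBP4. Inside cells, retinol is oxidised to retinal by alcohol and short-chain dehydrogenases, and retinal to retinoic acid by ALDH1A enzymes. Retinoic acid binds nuclear receptors of the RAR family, which act with RXR partners. CYP26 enzymes hydroxylate it for removal. Cyp26a1 and Rarb are textbook targets of retinoic acid: RAR and RXR bind paired hexamers in their promoters.

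Those paired sites are shown because the Cyp26a1 and Rarb values below are the ones that bear on receptor activity most directly. A promoter window ran from 250 bases before to 50 bases after an annotated start, and 8 of the 9 genes matched 11 windows. Each was searched on both strands for the hexamer AGGTCA, its variant AGTTCA, and the further variants GGGTCA as well as GGTTCA, any of them followed by any other in the same direction with 5 bases between the copies (a DR5). Among the 8 genes with a window, which leaves out Rdh10, a DR5 was found in Cyp26a1 and Rarb. Across all promoter windows 32 of 32851 held one, or 0.0974%, from 31 genes, of which 4 were tested for expression here. The windows are from RefSeq on GRCm38.p6, 5′ to 3′ on the gene's strand, with the hexamers in capitals. In Cyp26a1 (chr19:37697558-37697857, plus strand) the match covers bases -32 to -16 from the start and reads on the opposite strand. In Rarb (chr14:16575427-16575726, minus strand) it covers bases -53 to -37.
Cyp26a1: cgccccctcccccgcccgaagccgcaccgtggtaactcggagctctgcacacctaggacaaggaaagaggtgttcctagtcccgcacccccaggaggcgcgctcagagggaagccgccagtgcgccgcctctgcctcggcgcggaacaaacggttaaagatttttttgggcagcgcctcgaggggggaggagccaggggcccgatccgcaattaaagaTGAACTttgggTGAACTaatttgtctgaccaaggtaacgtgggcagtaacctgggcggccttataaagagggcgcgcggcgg
Rarb: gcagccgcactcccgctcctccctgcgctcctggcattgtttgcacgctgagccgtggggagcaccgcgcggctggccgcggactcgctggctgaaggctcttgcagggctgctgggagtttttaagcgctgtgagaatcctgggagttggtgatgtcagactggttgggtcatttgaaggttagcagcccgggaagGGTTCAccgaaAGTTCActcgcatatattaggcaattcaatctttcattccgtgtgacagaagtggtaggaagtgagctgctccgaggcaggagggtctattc
A match of letters is a description of the window and was not tested for binding.

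Rdh16 has near-identical neighbours on chromosome 10, which bears on how its reads can be assigned. The first 60 coding bases of Rdh16 and of 3 neighbouring paralogues, from GENCODE transcripts of GRCm38, show how close they are; capitals mark differences from Rdh16.
Rdh16: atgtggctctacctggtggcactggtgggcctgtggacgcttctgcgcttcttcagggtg
Rdh9: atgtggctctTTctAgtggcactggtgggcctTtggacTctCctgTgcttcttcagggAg
Rdh16f1: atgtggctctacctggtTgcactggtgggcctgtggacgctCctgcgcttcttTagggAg
Rdh7: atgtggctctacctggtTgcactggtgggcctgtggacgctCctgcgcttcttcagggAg
Over the whole coding sequence, identity to Rdh16 was 96.3% for Rdh9, 96.7% for Rdh16f1 and 86.1% for Rdh7. Even so, only 4.93% of the 150-base stretches of Rdh16 transcripts occurred in another gene, compared with 61.2% for Rdh9 and 97.2% for Rdh16f1. Read on the transcript's own strand, none of the stretches of the other 8 genes was shared. Rdh9 and Rdh16f1 are annotated with 2302 exon bases in common on the same strand, so they cannot be read as separate measurements.

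**Figure D1:**
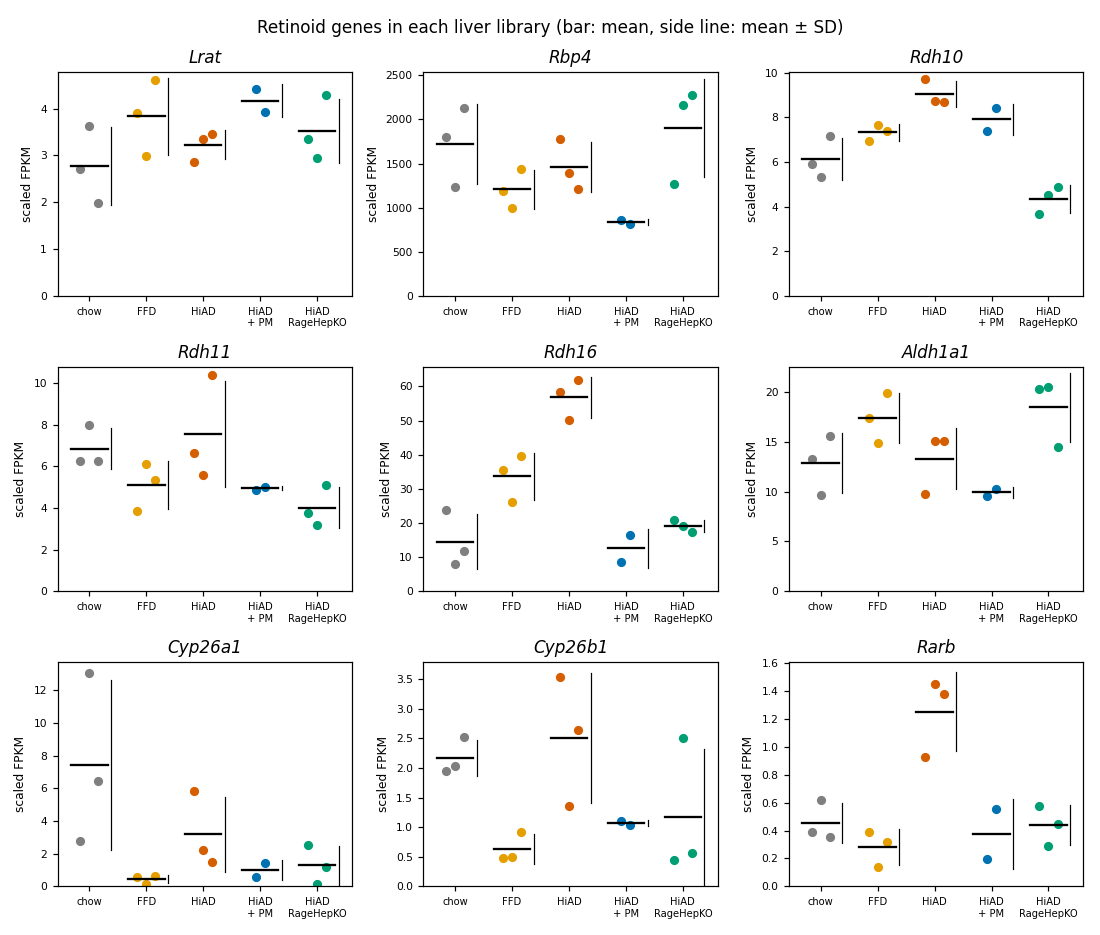
Scaled FPKM (vertical axes, each from 0) of the 9 genes in each of 14 libraries, by group (horizontal axes). Points are libraries, horizontal bars group means and side lines mean ± SD; Rdh16 in HiAD lies at 50.2 to 61.9, above every other library.

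The genes of storage and export passed in no comparison. Lrat (chromosome 3, 82892579 to 82903973, minus strand, GRCm38) was measured at 2.70, 3.64 and 1.99 scaled FPKM in chow. It was 3.91, 2.98 and 4.61 in FFD, and 2.87, 3.36 and 3.45 in HiAD. HiAD + PM livers had 4.42 and 3.93, and livers labelled RageHepKO had 3.35, 2.95 and 4.29. Neighbouring groups overlapped along the whole order of means, from HiAD + PM down to chow. The change from FFD to HiAD was -0.18 ± 0.20 (SE) on the log2 scale, with a 95% interval of -0.61 to 0.25. In bulk liver, fewer cells of a type and less RNA per cell cannot be told apart, and Lrat is expressed mainly by stellate cells. Other stellate markers were read beside it: the summed list of 19 genes, which includes Lrat, was 97.2 to 114 in chow, 119 to 146 in FFD, 134 to 164 in HiAD, 121 to 124 in HiAD + PM and 134 to 210 in the livers labelled RageHepKO. Of its 16 tested genes, 5 were higher in HiAD than chow and 2 higher than FFD, with 0 lower in either. Lrat passed in neither comparison, and 4.62% and 3.10% of all genes passed in them. In the livers labelled RageHepKO, 7 of the 16 were lower and 2 higher than in HiAD (median log2 difference -0.39), beside 33.4% of all genes passing. The larger sum in these livers came largely from Ecm1, at 47.6 to 109 against 24.0 to 48.5 scaled FPKM in HiAD. Of the tested stellate genes, Pdgfra and Hgf reached 1 scaled FPKM in HiAD libraries alone. Both were tested only because they were high there. Their part in the stellate counts and median of each comparison with HiAD was thus set by the filter and adds nothing.

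Rbp4 (chromosome 19, 38116629 to 38125281, minus strand), which hepatocytes secrete to carry retinol, was by far the most abundant of the 9 genes per length of exon. Its scaled FPKM was 1800, 1237 and 2129 in chow, 1191, 998.5 and 1436 in FFD, and 1776, 1397 and 1212 in HiAD. In HiAD + PM it was 862 and 812, below all other libraries. In the livers labelled RageHepKO it was 1269, 2170 and 2273, which overlapped HiAD. The difference between HiAD + PM and HiAD was -0.79 ± 0.33 (SE) on the log2 scale and did not pass after adjustment (adjusted p = 0.205, limma). The 95% interval of the HiAD and FFD difference ran from -0.37 to 0.92, so the values leave the sign of any change undecided.

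Of the 3 retinol dehydrogenases, Rdh16 passed in 3 comparisons, and Rdh10 and Rdh11 in the RageHepKO comparison alone. Rdh16 (chromosome 10, 127801152 to 127846565, plus strand), a microsomal enzyme that acts on retinol and on hydroxysteroids, was measured at 23.7, 8.09 and 11.9 scaled FPKM in chow and at 35.6, 26.0 and 39.5 in FFD. It was 58.4, 50.2 and 61.9 in HiAD. It was 8.57 and 16.6 in HiAD + PM, and 20.8, 19.2 and 17.4 in the livers labelled RageHepKO. HiAD overlapped no other group, FFD lay next, and the remaining 3 groups stood lower, with HiAD + PM overlapping chow. Against chow, HiAD was higher by 2.02 ± 0.33 (SE) on the log2 scale (adjusted p = 0.00452). HiAD + PM differed from HiAD by -2.15 ± 0.37 (adjusted p = 0.00474), and the livers labelled RageHepKO by -1.52 ± 0.33 (adjusted p = 0.00473). The step from chow to FFD was 1.26 ± 0.33 (adjusted p = 0.218) and that from FFD to HiAD 0.75 ± 0.33 (adjusted p = 0.274), and neither passed. HiAD + PM differed from FFD by -1.40 ± 0.37 (adjusted p = 0.225). Leaving out HiAD + PM library R18 ended the call against HiAD (log2 difference -1.71, adjusted p = 0.0867), which then rested on 1 treated liver.

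Rdh10 (chromosome 1, 16105774 to 16133734, plus strand), the enzyme that makes most retinal for retinoic acid in the mouse embryo, was lowest in the livers labelled RageHepKO. Its scaled FPKM there was 3.68, 4.53 and 4.89, below every library of the other groups. It was 5.93, 5.34 and 7.15 in chow, 6.93, 7.67 and 7.39 in FFD, 9.74, 8.72 and 8.71 in HiAD, and 7.41 and 8.41 in HiAD + PM. HiAD lay above every library of the other groups, and FFD and HiAD + PM overlapped each other. The difference between livers labelled RageHepKO and HiAD was -0.91 ± 0.15 (SE) on the log2 scale (adjusted p = 0.0015). Against chow, HiAD was at 0.50 ± 0.15 (adjusted p = 0.0888), which did not pass.

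Rdh11 (chromosome 12, 79174337 to 79192293, minus strand), a dehydrogenase that favours the reduction of retinal, ranged from 3.17 to 10.4 scaled FPKM. The HiAD libraries spread widely, at 6.67, 5.58 and 10.4. Chow libraries had 6.28, 7.98 and 6.27, FFD 3.84, 6.13 and 5.34, and HiAD + PM 4.88 and 5.03. The livers labelled RageHepKO had 3.75, 3.17 and 5.09, all below the lowest HiAD library. Their difference from HiAD was -0.75 ± 0.23 (SE) on the log2 scale (adjusted p = 0.0253). The call was lost without HiAD library B3 (adjusted p = 0.106), without RA19 (0.0562) and without RA20 (0.0764).

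Aldh1a1 (chromosome 19, 20492715 to 20643465, plus strand), which oxidises retinal to retinoic acid, varied least of the 9, by 2.16-fold between its lowest and highest library. It was 13.3, 9.68 and 15.6 scaled FPKM in chow, 17.4, 14.9 and 19.9 in FFD, and 9.81, 15.1 and 15.1 in HiAD. It was 9.52 and 10.3 in HiAD + PM and 20.3, 20.5 and 14.5 in the livers labelled RageHepKO. HiAD overlapped each other group. HiAD + PM lay below all FFD libraries, and that difference of -0.74 ± 0.25 (SE) on the log2 scale did not pass (adjusted p = 0.396).

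The genes that remove retinoic acid were lowest in FFD. Cyp26a1 (chromosome 19, 37697798 to 37701536, plus strand), the main retinoic acid hydroxylase of adult liver, had the widest range, with 84.2-fold between its extremes. Chow livers had 2.75, 13.1 and 6.47 scaled FPKM. FFD livers had 0.590, 0.167 and 0.624, all below chow and below HiAD, which had 5.81, 2.24 and 1.52. HiAD + PM livers had 0.575 and 1.46, and livers labelled RageHepKO 2.55, 0.155 and 1.18. The difference from chow to FFD was -2.34 ± 0.51 (SE) on the log2 scale (unadjusted p = 0.000548, adjusted p = 0.148). That from FFD to HiAD was 1.40 ± 0.51 (adjusted p = 0.178). Neither passed, although the groups did not overlap.

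Cyp26b1 (chromosome 6, 84571414 to 84593908, minus strand), which also hydroxylates retinoic acid, was 1.95, 2.04 and 2.52 scaled FPKM in chow. It was 0.475, 0.491 and 0.920 in FFD, below all chow, HiAD and HiAD + PM libraries. HiAD livers had 3.53, 1.36 and 2.63, and HiAD + PM livers 1.11 and 1.04. Among the livers labelled RageHepKO it was 2.50 in 1 and 0.446 and 0.560 in the others. The difference was -0.97 ± 0.31 (SE) on the log2 scale from chow to FFD (adjusted p = 0.327) and 1.07 ± 0.31 from FFD to HiAD (adjusted p = 0.0961). Without the RageHepKO libraries in the fit, the latter passed (adjusted p = 0.0277).

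Rarb (chromosome 14, 16430839 to 16819156, minus strand), the receptor whose own gene responds to retinoic acid, was low throughout. HiAD livers had 0.925, 1.45 and 1.37 scaled FPKM, above all other libraries. Chow livers had 0.392, 0.621 and 0.352, FFD 0.391, 0.137 and 0.320, HiAD + PM 0.198 and 0.550, and livers labelled RageHepKO 0.579, 0.292 and 0.447. Rarb reached 1 scaled FPKM in 2 libraries, both HiAD, and so was tested only because it was high there. A pass in a comparison with HiAD therefore adds nothing beyond these levels. The difference between HiAD and FFD was 0.81 ± 0.20 (SE) on the log2 scale (adjusted p = 0.0435), and leaving out any 1 of those 6 libraries ended the call (adjusted p from 0.0649 to 0.168). Between livers labelled RageHepKO and HiAD it was -0.64 ± 0.20 (adjusted p = 0.0247), which was lost without B2 (0.0857), B3 (0.0737) or RA20 (0.0568). Of the Rarb exon bases, 34.1% are shared with Top2b on the opposite strand. Strand use in the counting was not given in the sources consulted, so reads of the pair cannot be told apart over these bases. Top2b, picked after its values were seen, passed in no comparison, and its log2 difference between HiAD and FFD was 0.29 ± 0.19. Its scaled FPKM was 1.70 to 1.96 in HiAD and 1.14 to 1.42 in FFD, without overlap and in the same direction as Rarb. The part of Top2b reads in the Rarb values was not tested.

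**Figure D2:**
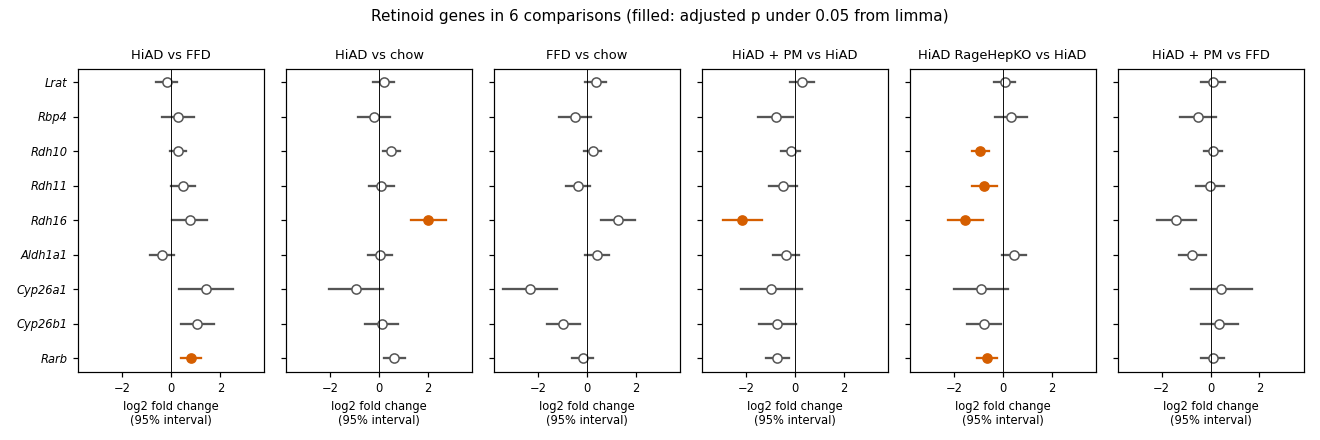
Log2 fold change (horizontal axes) of each of 9 genes (rows) in 6 comparisons (panels), first group minus second, with 95% intervals; filled orange points have an adjusted p below 0.05 from limma. Filled points are Rarb in HiAD vs FFD, Rdh16 in 3 panels, and Rdh10, Rdh11 and Rarb with RageHepKO.

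Counts over the 9 genes are given beside the share of all tested genes. Between HiAD and FFD, 1 of 9 genes passed (Rarb) where 3.10% of all tested genes did, and 5 of 9 had groups that did not overlap where 30.6% of all genes did. Between HiAD and chow, 1 passed (Rdh16; 4.62% of all genes) and 3 did not overlap (25.6%). Between FFD and chow, 0 passed by limma (0.0661%) and 4 did not overlap (17.9%). An unadjusted p below 0.05 was found for 3 of the 9, and for 1218 of all 12110 genes. Between HiAD + PM and HiAD, 1 passed (Rdh16; 6.45%) and 8 did not overlap (50.0%), with 2 livers in the PM group. Between livers labelled RageHepKO and HiAD, 4 were lower and 0 higher (33.4% of all genes passed in either direction) and 4 did not overlap (44.0%). Between HiAD + PM and FFD, 0 passed by limma (0.132%) and 4 did not overlap (41.8%). There 2 of the 9 had an unadjusted p below 0.05, as did 1012 of all 12110 genes. The comparisons with HiAD share its 3 libraries and are not independent of each other. Rarb, counted between HiAD and FFD and among the 4 with RageHepKO, was tested only because it was high in HiAD. Its part in these counts, and in those of groups without overlap, was thus set by the filter and adds nothing. For the RageHepKO comparison the 4 of 9 stand beside 33.4% of all genes, so the count says little about these genes as a group. That comparison also moves with the scaling: of all genes, 1900 were higher and 2144 lower here, against 417 and 5495 when libraries were set to a common sum of FPKM, where the median gene shifted to -0.58 on the log2 scale and Rdh16 and Rdh10 stood at -2.35 and -1.61. Between HiAD and chow, 340 genes were higher and 220 lower, against 791 and 177 with the common sum, where the median gene stood at 0.15.

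The rest of the retinoid pathway was read from a list of 60 further genes, of which 59 were in the table and 42 were tested. Between HiAD and FFD, 6 were higher and 3 lower, beside the 3.10% of all genes that passed, and the median log2 difference was -0.04 against 0.02 over all genes. Between HiAD and chow, 7 were higher and 2 lower, beside 4.62% of all genes (median 0.11 against -0.02). Both counts of higher genes take Rdh9 and Rdh16f1 as separate genes, although they share most of their exons. They also include Dhrs9, which was tested only because of its level in HiAD and HiAD + PM libraries. Between FFD and chow, and between HiAD + PM and FFD, 0 of 42 passed by limma. Between HiAD + PM and HiAD, 4 were higher and 4 lower, beside 6.45% of all genes. Between livers labelled RageHepKO and HiAD, 8 were higher and 10 lower, beside 33.4% of all genes.

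Among enzymes that free retinol from lipid, Lpl (lipoprotein lipase, which takes up remnant lipid) was higher in HiAD than in FFD by 2.52 ± 0.43 (SE, log2 scale) and than in chow by 4.20 ± 0.43, although the HiAD libraries ran from 23.0 to 114 scaled FPKM. Pnpla2, a triglyceride lipase that also hydrolyses retinyl esters, was at 73.3, 57.6 and 56.3 in HiAD against 24.6, 23.5 and 27.8 in FFD (1.26 ± 0.27, adjusted p = 0.0235). It was at 18.4 and 13.0 in HiAD + PM, lower than in HiAD (log2 difference -1.93 ± 0.30). The carboxylesterase Ces1g was higher in HiAD than FFD (2.75 ± 0.60) and chow (3.04 ± 0.60), and Ces1d higher than chow alone (2.51 ± 0.60, adjusted p = 0.0338). The group thus held 3 higher and 0 lower of 12 tested genes in both comparisons.

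Among the 14 tested genes between retinol and retinal, the joint signal of Rdh9 and Rdh16f1 followed the same groups as Rdh16. Rdh9 was 135, 134 and 186 scaled FPKM in HiAD against 44.7, 64.8 and 63.9 in FFD and 30.9 and 25.1 in HiAD + PM. It was higher in HiAD than FFD by 1.38 ± 0.24 (SE, log2 scale; adjusted p = 0.00912), and Rdh16f1 by 1.41 ± 0.24 (adjusted p = 0.00801). Against chow the differences were 2.17 ± 0.24 and 2.15 ± 0.24. Both were lower than HiAD in HiAD + PM (log2 differences -2.39 ± 0.27 and -2.43 ± 0.27) and in the livers labelled RageHepKO (-1.68 ± 0.24 and -1.57 ± 0.24). Rdh7, a further paralogue with 86.1% identity to Rdh16 and a far higher level, did not share this pattern: it lay at 768 to 937 in HiAD and 1036 to 1276 in FFD (-0.46 ± 0.20, adjusted p = 0.288).

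Dhrs9, a short-chain dehydrogenase, was higher in HiAD than FFD (1.39 ± 0.24, SE, log2 scale) and chow (0.96 ± 0.24), at levels of 1.27 to 3.50 scaled FPKM in HiAD. Dhrs9 reached 1 scaled FPKM in HiAD and HiAD + PM libraries alone, so it was tested because of those groups. Adh4, an alcohol dehydrogenase that accepts retinol, was lower in HiAD than FFD: HiAD had 8.99, 12.9 and 4.92 against 28.1, 21.5 and 23.2 (-1.42 ± 0.28, adjusted p = 0.0175). Chow livers had 14.4, 11.5 and 11.8, which overlapped HiAD (-0.53 ± 0.28, adjusted p = 0.324), and HiAD + PM had 20.7 and 26.9. Aox3, an aldehyde oxidase that can act on retinal, was 4.76 to 5.24 in HiAD. It was 10.6 to 13.7 in FFD, a difference of -1.07 ± 0.22 (adjusted p = 0.02), and 24.7 and 24.8 in HiAD + PM, a difference from HiAD of 2.10 ± 0.24. Against chow the difference was -0.85 ± 0.22 (adjusted p = 0.0449). Dhrs3, a retinal reductase shown beside them in the plot of oxidising enzymes, did not pass in any comparison.

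**Figure D3:**
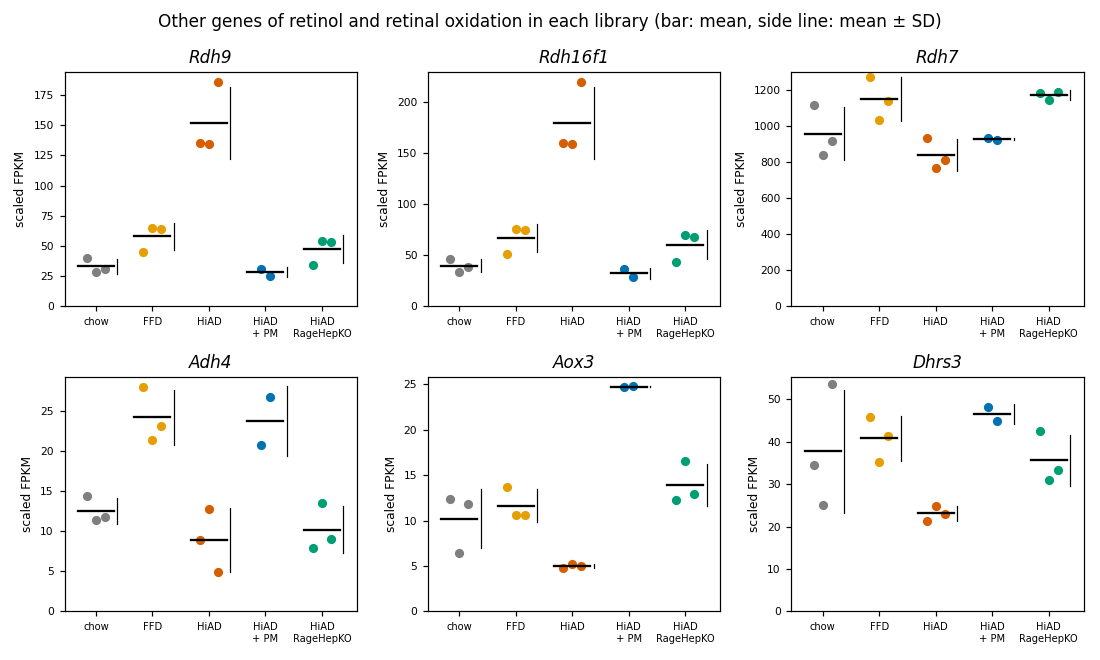
Scaled FPKM (vertical axes, each from 0) of 6 further genes that act on retinol or retinal, in each of 14 libraries by group (horizontal axes); points are libraries, bars group means and side lines mean ± SD. Rdh9 and Rdh16f1 share most of their exons and are highest in HiAD, where Aox3 is lowest at 4.76 to 5.24.

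Among retinoic acid responsive genes, Rarres1 (named for its induction by retinoids in skin) was lower in HiAD than FFD (log2 difference -2.39 ± 0.39, SE) and chow (-2.23 ± 0.39), with 9.36 to 20.9 scaled FPKM in HiAD and 45.1 or more in each FFD and chow library. Tgm2, a transglutaminase that retinoic acid induces in several cell types, was higher in HiAD than chow by 0.86 ± 0.22 (adjusted p = 0.0448) and stood at 0.15 ± 0.22 against FFD. Against chow these 2 genes differed in direction. Of the 4 tested receptor genes other than Rarb, 0 passed between HiAD and FFD or chow by limma, and Rarg lay at 0.971 to 1.11 scaled FPKM in HiAD and 0.624 to 0.676 in FFD. Like Rarb, it reached 1 in 2 HiAD libraries alone and was tested because of them.

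By likeness over all 14 libraries on the log2 scale, Rdh16 was closest to Abcd2 (Pearson r = 0.90), 4732463B04Rik (0.88) and Gm49366 (0.88). Rdh10 was closest to Dsp (0.95), Vasn (0.95) and Klf13 (0.94). Rdh11 was closest to Kpna1 (0.89), Kif21a (0.88) and Ywhaz (0.86), and Rarb to Slco1a4 (0.94), Mmp7 (0.92) and Chrnb1 (0.91). These values describe libraries that share group differences and scaling, and were picked as the highest of 12110 genes.

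Markers of other cells and states also differed between these groups. The male-biased list, which sets the HiAD libraries apart, had 8 of 10 genes lower in HiAD than FFD, and 9 of 10 higher in HiAD + PM than HiAD and in the livers labelled RageHepKO than HiAD, the same split of libraries as for Rdh16. Cholangiocyte markers had 2 of 3 tested genes higher in HiAD than in either diet control. Of these 3, Epcam reached 1 scaled FPKM in HiAD libraries alone. It was tested only because it was high there, so its part in the count adds nothing. Of all genes, 3.10% passed between HiAD and FFD and 4.62% between HiAD and chow. The shares were 6.45% between HiAD + PM and HiAD and 33.4% in the RageHepKO comparison. Kupffer cell markers summed to 53.1 to 67.0 scaled FPKM in HiAD and 136 to 570 in FFD, with 3 of 8 lower. The FFD top came from library R31 alone. Chow livers had 70.1 to 151, and 0 of 8 passed between HiAD and chow by limma. Pericentral hepatocyte genes, a zone rich in retinoid and drug oxidation, summed to 3239 to 3843 in HiAD and 4625 to 5781 in FFD, with 2 of 13 lower. Chow livers had 3671 to 5305.5, which overlapped HiAD, and 3 of 13 were lower in HiAD than chow. The part of these shifts in the retinoid genes' differences was not tested. For the RageHepKO comparison the share of mitochondrial RNA moved too, and its part was not tested. Rdh10 and Rdh16 passed there under every scaling tried. The median gene, however, stood at -0.26 unscaled, -0.58 with the common sum and -0.30 with that sum without mitochondrial genes. Such shifts push genes already lower further down, so passing under them was no separate check.

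**Figure D4:**
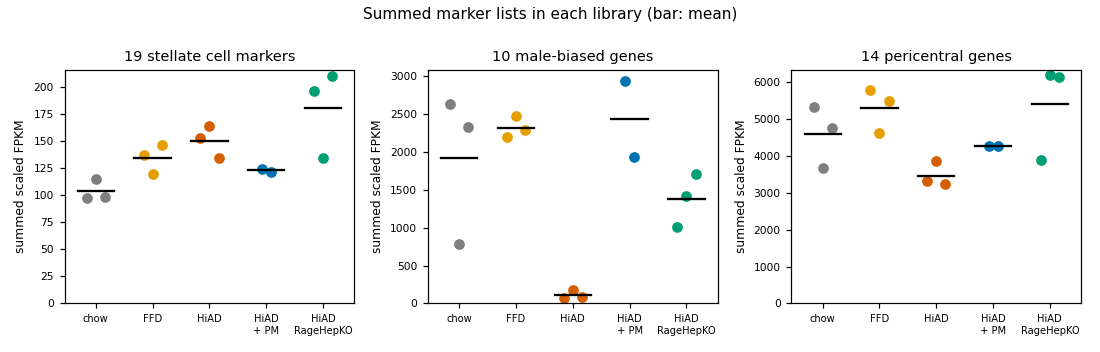
Summed scaled FPKM (vertical axes, each from 0) of 19 stellate markers, 10 male-biased genes and 14 pericentral genes in each library, by group (horizontal axes); points are libraries and bars group means. The male-biased sum is 69.5 to 178 in HiAD and 785 or more elsewhere.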

How the data were processed

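Bulk liver RNA-seq of 14 mice in 5 groups was analysed. Although the file's name speaks of raw counts, the deposited values hold fractions, and their products with exon length have nearly equal totals per library. They were therefore treated as FPKM made by the authors, a unit inferred here. The authors mapped reads to GRCm38 with GENCODE annotation. The tool behind the FPKM was not given in the sources consulted. Read depth is unknown.

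From 55583 entries, 27 date-like names and 129 exact duplicates were dropped. Scaling used the trimmed mean of log ratios over 6522 genes (30% trimmed from each end). Genes of at least 1 scaled FPKM in at least 2 libraries were tested (12110) with limma 3.58.1 in R 4.3.3 on log2(scaled FPKM + 1), as 1 fit of 5 group means with trended and robust variance, 6 contrasts and Benjamini-Hochberg adjustment. The code was tested on simulated data.

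Named genes were all 9 members, pathway genes passing in the diet comparisons, the 3 most similar genes to each member that passed, and Ager. Genes given for comparison beside these (Rdh7, Dhrs3, Rarg, Top2b) were chosen after their values were seen. Members and lists were chosen with earlier results of these data known. P-values measure the spread between these mice. Alternatives covered scaling, pseudocount, filter, samples, weights, thresholds and leaving out each library.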

Additional observations from a re-analysis of the deposited data

How the results depend on the processing

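No result for a single gene reversed among its called values: of the values under an alternative, 907 kept their side of the threshold, 21 newly passed and 20 no longer passed. Read depth is unknown, so the precision rests on 2 or 3 mice a group. The cause of the changes below was not tested.

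The count of the 9 genes passing moved as follows. Between HiAD and FFD (1) it was 0 with a pseudocount of 0.1 or a filter on the mean, 2 without the RageHepKO group, 3 with sample quality weights, 4 at an unadjusted p under 0.05, 2 at an adjusted p under 0.1 and 0 without any 1 of the compared libraries. Between HiAD and chow (1) it was 3 with a common sum of FPKM, with that sum without mitochondrial genes (added after seeing the data), with weights and at either looser threshold. Between FFD and chow (0) it was 1 with weights and 3 unadjusted. Between HiAD + PM and HiAD (1) it was 3 with weights, 2 without trend and robust variance, 3 unadjusted, 2 at an adjusted p under 0.1 and 0 to 1 with a library left out. Between livers labelled RageHepKO and HiAD (4) it was 6 with a common sum of FPKM, where Cyp26a1 (adjusted p = 0.0326) and Cyp26b1 (0.00437) also passed, 5 unscaled or with the sum without mitochondrial genes, 3 with weights, without a filter, with a filter on the mean or with a pseudocount of 0.1, 2 with both groups fitted alone and 2 to 4 with a library left out. Between HiAD + PM and FFD (0) it was 2 with weights and 2 unadjusted. With weights, Cyp26a1 was lower in FFD than chow (-1.59, adjusted p = 0.0406). At an unadjusted limma p under 0.05, the 12110 genes gave 1964 for HiAD and FFD, 2422 for HiAD and chow and 1218 for FFD and chow. They gave 2429 for HiAD + PM and HiAD and 1012 for HiAD + PM and FFD.

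Chow and HiAD share the numbers 1 to 3. Deviations of same-numbered libraries correlated at 0.04, -0.09 and -0.05, and those of differently numbered libraries at -0.14 to 0.14. These correlations gave no sign of pairing by number, but with 3 libraries a group they cannot exclude it. With the replicate number as a block, 0 members passed between HiAD and chow; Rdh16 kept its log2 difference of 2.02 (adjusted p = 0.0857).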
